A study of Mus musculus with 2 samples.

Results

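The genes described here are the cadherins and the nonclustered protocadherins, with the related FAT, Dachsous and CELSR genes, as read in the ureters of mouse embryos in which Smad4 was deleted from the ureteric mesenchyme. Members were chosen by the gene name in the scanner files: Cdh or Pcdh followed by a number only, and in addition Pcdh11x, Cdhr1, Fat1 to Fat4, Dchs1 and Celsr1 to Celsr3. The rule used no measured value, but the members were chosen with earlier results of these data known. It found 45 genes on 64 probes, of 31870 genes on 39429 probes. Of these, 24 were cadherins (Cdh), 12 were protocadherins, and 9 were FAT, Dachsous, CELSR or Cdhr1 genes. A gene was tested where a probe was well above background in the same labelled group on both arrays, which held for 41 of the 45 members. Cdh7, Cdh17, Cdh23 and Cdhr1 were not well above background.

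RNA came from ureters dissected at E14.5 (the embryonic stage in days) from NMRI mice and was hybridised to 2 two-colour arrays, so 2 ratios stand behind each value. The mutant, called Smad4cKO (UM) in the labels, was Tbx18(cre/+);Smad4(fl/fl), and the control was Tbx18(+/+);Smad4(fl/+). Cre recombinase was thus made from the Tbx18 locus, which is active in the mesenchyme around the ureteric epithelium, and only the mutant carried this allele, while each control carried 1 floxed Smad4 allele. Array 1 compared female embryos, with the control labelled in AlexaFluor647 (red) and the mutant in AlexaFluor555 (green). Array 2 compared male embryos with the dyes exchanged, so that sex and dye orientation cannot be told apart. The labels do not give the number of embryos or litters in an RNA. The p-values rest only on spread between these 2 arrays, that of the gene and, with more weight, that pooled over all genes by limma. This spread may be technical.

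All ratios are the channel labelled Smad4cKO over the channel labelled control, by the dye labels, on a log2 scale, where 1 is a doubling of the signal. The authors' deposited value table runs the other way by the same dye labels, as control over Smad4cKO, although its titles name Smad4cKO first. Genes are therefore called brighter or dimmer in the channel labelled Smad4cKO; were the dye labels exchanged on both arrays, each brighter would read dimmer with its size and test unchanged. Smad4, the deleted gene, had log2 ratios of -0.69 on array 1 and -0.14 on array 2, with a mean of -0.42 (SE 0.17) and a limma adjusted p of 1.00. Tbx18, whose locus carries Cre in the mutant only, had 0.07 and 0.81, with a mean of 0.44 (SE 0.20, limma adjusted p 1.00). Where these probes lie relative to the floxed or replaced sequence was not examined, and the ratios settle neither the deletion nor the direction of the labels. Between 68.3% and 70.3% of spots were well above background in each channel.

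Cadherins are calcium-dependent adhesion proteins that bind the same or a related cadherin on the neighbouring cell. Classical cadherins, of type I and type II, carry a cytoplasmic tail that binds catenins and through them the actin cytoskeleton at adherens junctions, and epithelium and mesenchyme use different members. Nonclustered protocadherins, most of them of the delta group, adhere weakly and act in cell sorting, migration and the nervous system. FAT and Dachsous proteins bind each other across cells and, with the CELSR proteins, orient cells within a tissue plane.

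None of the 41 tested members passed the limma test at an adjusted p of 0.05 in either direction; of all 21238 tested genes 0 (0%) were brighter and 1 (0.00471%) was dimmer by it. By a rule without a test, which asks each array for a difference of 1.5-fold or more with 1 shared sign, 2 members were brighter, Pcdh9 and Cdh22, and 2 were dimmer, Pcdh8 and Cdh9. The shares of all tested genes past this rule were 0.49% brighter and 0.523% dimmer. Either direction together held 4 of 41 members, or 9.76%, against 1.01% of all tested genes. These shares are a description only, since the members were chosen with earlier results of these data known. No member passed 1.5-fold in opposite directions, against 1.25% of all genes. At an unadjusted limma p under 0.05 there were 2 brighter members, the same Pcdh9 and Cdh22, and 4 dimmer ones, Celsr3 and Cdh2 beside Pcdh8 and Cdh9; over all genes these shares were 2.14% and 2.97%.

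As a group the members were centred near 0. The median log2 ratio of the 41 members was -0.0046, with -0.05 on array 1 and 0.01 on array 2, against 0.0047 over all tested genes, and the middle 50% of members lay between -0.14 and 0.10. The sign was the same on both arrays for 21 members, 10 brighter and 11 dimmer, which is 51.2% of them against 39.7% of all tested genes. Across the 41 members the ratios of the arrays had a Pearson correlation of 0.54, a description over genes that share both arrays and are not replicates; across all tested genes it was -0.07. The 6 members at an unadjusted limma p under 0.05 all had 1 sign on both arrays and count among the 21. How far the share of 51.2% and the correlation of 0.54 rest on these few members was not computed. The 95% interval held 0 for 35 members, and for 29 members it lay wholly within 1.5-fold of no difference. The half-widths of these intervals, from 0.32 to 0.68 on the log2 scale, show how wide a difference 2 arrays leave unresolved. For members whose arrays nearly coincide, the half-width is set mostly by the spread that limma pooled over all genes. The count of 29 belongs to the setting used here, whose offset of 50 draws the ratios of dim probes toward 0. Cdh19 is among the 29, yet its mean log2 ratio was -0.62 with the processed signals, which had no offset added.

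**Figure D1:**
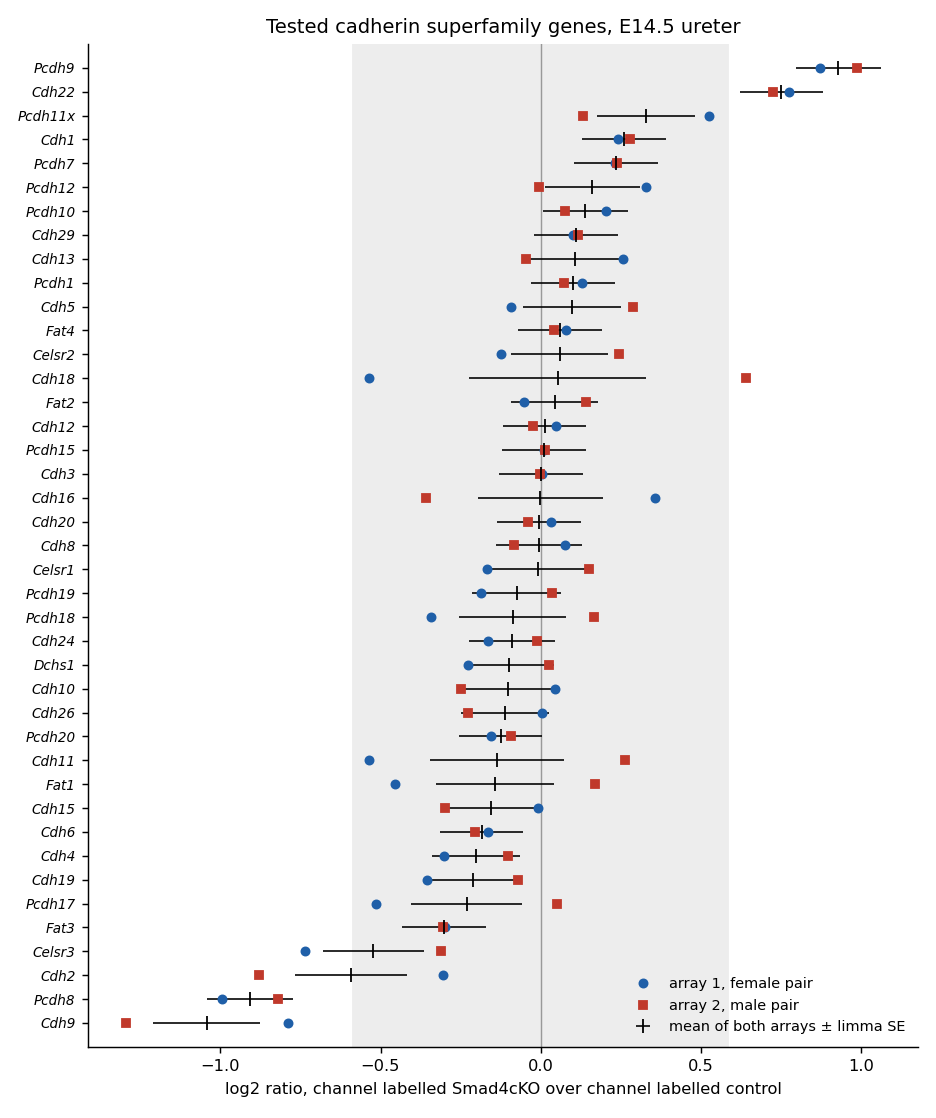
Log2 ratio of the channel labelled Smad4cKO over the channel labelled control for each of the 41 tested members, in order of the mean. Circles are array 1 (female pair), squares array 2 (male pair), the upright tick and bar the mean and limma's SE, and the shaded band spans 1.5-fold either way; only Pcdh9, Cdh22, Pcdh8 and Cdh9 have both points outside the band.

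The type I classical cadherins held 5 members, all tested and none past the 1.5-fold rule, with a median log2 ratio of -0.15. Cdh1 (E-cadherin), the adhesion protein of epithelia including the urothelium, read 4229 and 4883 in processed signal units in the channels labelled Smad4cKO of arrays 1 and 2, and 3586 and 3985 in those labelled control. Each array thus put the labelled mutant slightly higher, with log2 ratios of 0.24 and 0.28 and a mean of 0.26 (SE 0.13, 95% interval -0.06 to 0.58, limma adjusted p 1.00). Its probe (chr8:109193812-109193871, build mm9) was printed in 10 spots, whose ratios ran from 0.21 to 0.27 on array 1 (SD 0.024) and from 0.22 to 0.32 on array 2 (SD 0.036). The spots repeat the measurement of 1 RNA pair and say nothing of the spread between embryos.

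Cdh2 (N-cadherin), found in mesenchyme, neurons and muscle, went the other way. Its signals were 11095 and 10599 in the channels labelled Smad4cKO against 14092 and 19277 in those labelled control, so the groups did not overlap. The log2 ratios were -0.31 and -0.88, with a mean of -0.59 (SE 0.18, limma adjusted p 0.588), and array 1 was short of the 1.5-fold rule. A further Cdh2 probe read -0.41 on array 1 and -0.87 on array 2. Lack of overlap, here and for later members, is read across arrays and sets aside the pairing within each. The labelled groups of members nearer 0, such as Cdh1, Fat3 and Pcdh10, did not overlap either. The share of all tested genes without overlap was not computed.

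Cdh3 (P-cadherin), of basal epithelial layers, showed no such separation. It read 1930 and 1950 in the channels labelled Smad4cKO and 1967 and 1856 in those labelled control, with log2 ratios of 0.01 and -0.00 and a 95% interval of the mean from -0.32 to 0.32. The log2 ratios come from mean signals normalized apart from the processed signals. For Cdh3 their signs are opposite to the order of the processed signals on both arrays. Cdh3 and Cdh1 lie side by side on chromosome 8. Cdh4 (R-cadherin) had a mean of -0.20 from -0.30 and -0.10, and 2 further probes of it were above 0 on array 2, up to 0.08, so its probes did not share a sign there. Cdh15 (M-cadherin), of skeletal muscle, had -0.01 and -0.30.

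Among the type II classical cadherins, 12 of 13 members were tested; Cdh22 was brighter and Cdh9 dimmer by the 1.5-fold rule, and the group's median was -0.05. Cdh9 was the member farthest from 0. It has a close relative on either side of it on chromosome 15. The array's probes for Cdh9, Cdh6 and Cdh10 are taken to read the same conserved end of the coding sequence, the catenin-binding tail. Their place in the coding sequence was not checked. The probes are shown because they are the only ones of the 64 that resemble the Cdh9 probe. In build mm9 they lie at chr15:16785915-16785974 (plus strand, Cdh9), chr15:12963981-12964040 (minus strand, Cdh6) and chr15:18943342-18943401 (plus strand, Cdh10). Capitals in the Cdh6 and Cdh10 lines mark bases identical to the Cdh9 probe in the best ungapped alignment; the Cdh9 line is the reference and has none.
Cdh9: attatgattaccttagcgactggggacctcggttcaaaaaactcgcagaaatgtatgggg
Cdh6: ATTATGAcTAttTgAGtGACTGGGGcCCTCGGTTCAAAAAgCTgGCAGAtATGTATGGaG
Cdh10: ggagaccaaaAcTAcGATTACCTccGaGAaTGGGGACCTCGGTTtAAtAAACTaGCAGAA

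The Cdh6 probe shared 50 of 60 bases with that of Cdh9 and the Cdh10 probe 41 of the 50 that overlap it, while no probe of another member shared more than 51.6% over at least 30 bases. How far RNA of one gene binds the probe of another was not tested. Their ratios differed. Cdh9 read 269 and 238 in the channels labelled Smad4cKO against 513 and 624 in those labelled control, with no overlap, and the processed signal of the labelled control was 1.90 times that of the labelled mutant on array 1 and 2.62 times on array 2. Its log2 ratios were -0.79 and -1.30, with a mean of -1.04 (SE 0.17, 95% interval -1.45 to -0.63, limma adjusted p 0.176). By size of the mean ratio it stood at place 66 among the 21238 tested genes.

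Cdh6 (K-cadherin), a cadherin of the developing kidney, read 2296 and 2655 in the channels labelled Smad4cKO against 2509 and 3136 in those labelled control, and these ranges overlapped. Its log2 ratios were -0.16 and -0.20 (mean -0.18, SE 0.13, limma adjusted p 1.00). Cdh9 was lower than Cdh6 by a log2 difference of -0.63 on array 1 and -1.09 on array 2. Cdh10, a neuronal type II cadherin, had 0.05 and -0.25, and Cdh9 lay below it by -0.84 and -1.05. The remaining cadherins of that chromosome, Cdh12 and Cdh18, had means of 0.01 and 0.05.

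Cdh22, a type II cadherin known from pituitary and brain, was the brighter member of this group. Its probe (chr2:164937057-164937116, minus strand) read 282 and 283 in the channels labelled Smad4cKO against 136 and 146 in those labelled control. The channels of each label lay close to each other and apart from the other label on both arrays. The log2 ratios were 0.78 and 0.73, with a mean of 0.75 (SE 0.13, 95% interval 0.43 to 1.07, limma adjusted p 0.199), at place 187 among all tested genes. These signals are low, and the processed signals, which had no offset added, gave larger ratios, 2.07 on array 1 and 1.94 on array 2.

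**Figure D2:**
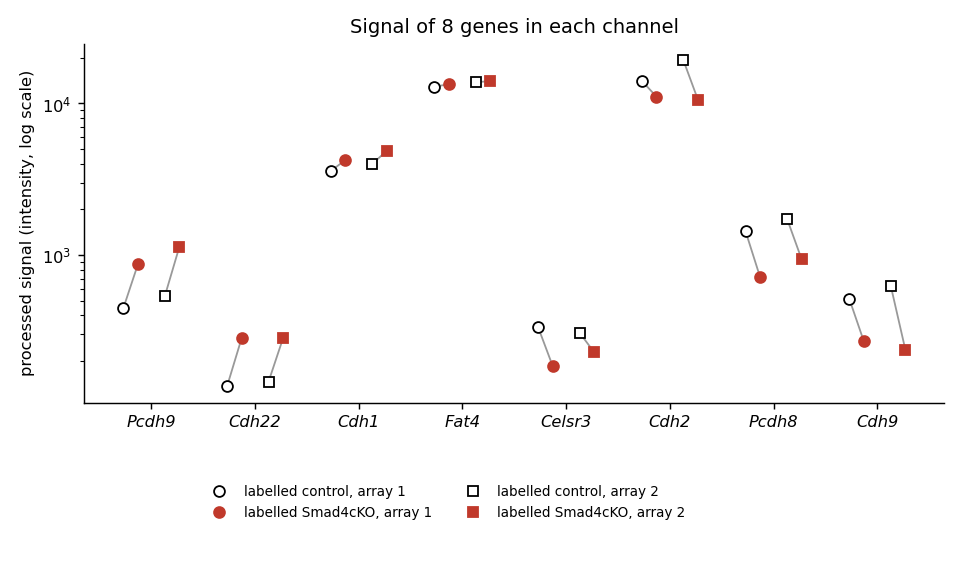
Processed signal (intensity, log scale) of 8 members in each channel, with open symbols for the channel labelled control and filled symbols for that labelled Smad4cKO, circles for array 1 and squares for array 2, joined within an array. Lines climb to the labelled mutant for Pcdh9 and Cdh22, drop for Celsr3, Cdh2, Pcdh8 and Cdh9, and are nearly level for Fat4.

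Of the other type II members, Cdh11 (OB-cadherin), a mesenchymal cadherin, had 5572 and 7860 in the channels labelled Smad4cKO against 8139 and 6482 in those labelled control. The groups overlapped, since array 1 gave a log2 ratio of -0.54 and array 2 one of 0.26, and a further Cdh11 probe repeated these signs with -0.23 and 0.14. Cdh5 (VE-cadherin), the cadherin of endothelial junctions, also had opposite signs, with -0.09 and 0.29. Cdh19, known from Schwann cell precursors, had -0.35 and -0.07 at processed signals between 31.2 and 64.7. Cdh8, Cdh12 and Cdh20 had means between -0.0046 and 0.01, and Cdh24 had -0.17 and -0.01. The control channel of Cdh20 was well above background on 1 of the 2 arrays.

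Cdh18, a neuronal type II cadherin, had the widest difference between arrays in the group, -0.54 on array 1 and 0.64 on array 2. The probe behind these values carries a predicted-model accession and read from 40650 to 51458, whereas the Cdh18 probe with an mRNA accession read from 51.4 to 81.8 and had ratios of 0.38 and 0.13. The probes of Cdh18 therefore disagreed in sign on array 1. Which of them reads Cdh18 RNA was not tested.

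The atypical cadherins, which lack the classical tail or carry a different one, had 4 of 7 members tested and none past the 1.5-fold rule. Cdh16 (Ksp-cadherin), of kidney and ureteric bud epithelium, read 21057 and 18226 in the channels labelled Smad4cKO and 16587 and 23766 in those labelled control. It was brighter in green on both arrays, with log2 ratios of 0.36 and -0.36 and a mean of -0.0006 (95% interval -0.48 to 0.48). Cdh13 (T-cadherin), which is held to the membrane by a lipid anchor, had 0.26 and -0.04, and Cdh26 had 0.00 and -0.23. Cdh29, now named Cdhr4, had 0.10 and 0.12, and a further probe of the gene, found as Cdhr4 through its RefSeq accession and so outside the name rule, had 0.17 and 0.09. Taking all Cdh genes by position, 8 tested ones lie on chromosome 8 and none of them passed the 1.5-fold rule, with means from -0.15 (Cdh15) to 0.26 (Cdh1). The 5 on chromosome 15 had means from -1.04 (Cdh9) to 0.05 (Cdh18), and the 3 on chromosome 2 had 0.75 (Cdh22), -0.11 (Cdh26) and -0.20 (Cdh4).

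The delta protocadherins held the largest differences among the protocadherins, 1 in each direction, with 9 of 9 members tested and a median log2 ratio of 0.10. Pcdh9, of the delta-1 subgroup and best known from neurons, read 866 and 1131 in the channels labelled Smad4cKO against 446 and 536 in those labelled control. The labelled groups did not overlap. Log2 ratios were 0.87 and 0.99, with a mean of 0.93 (SE 0.13, 95% interval 0.60 to 1.25, limma adjusted p 0.141), at place 102 among all tested genes. Pcdh9 had 3 tested probes, at chr14:93413428-93413487, chr14:93414821-93414880 and chr14:93959696-93959755 in mm9, the last of them far from the others in the gene. Their ratios ran from 0.87 to 1.06 on array 1 and from 0.85 to 0.99 on array 2, and their means from 0.93 to 0.95.

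Pcdh8, the delta-2 protocadherin related to the paraxial protocadherin that acts in gastrulation and somite formation, was the dimmer one. Its probe (chr14:80166728-80166787, minus strand) read 714 and 939 in the channels labelled Smad4cKO against 1431 and 1730 in those labelled control, again without overlap. Log2 ratios were -0.99 and -0.82, with a mean of -0.91 (SE 0.14, 95% interval -1.24 to -0.58, limma adjusted p 0.154), at place 112 among all tested genes. Pcdh8 and Pcdh9 thus lie on the same chromosome and stood at opposite ends of the group.

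Pcdh17 and Pcdh20, which also lie on chromosome 14, did not pass the rule. Pcdh17, of the delta-2 subgroup, had -0.51 and 0.05, and Pcdh20 had -0.16 and -0.09. The delta-1 members Pcdh7, Pcdh11x and Pcdh1 were above 0 on both arrays. Pcdh7 had 0.23 and 0.24, and its 3 tested probes ran from 0.19 to 0.40 on array 1 and from 0.16 to 0.24 on array 2. Pcdh11x, the X-linked member, had 0.53 and 0.13, and Pcdh1 had 0.13 and 0.07. The limma adjusted p was 1.00 for each of these 3. The Pcdh11x values come from a probe of a predicted model. Its further probe, of a known mRNA, was not well above background in any channel, with processed signals from 6.4 to 23.3.

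Of the remaining delta-2 members, Pcdh18 had -0.34 and 0.17, and Pcdh19, an X-linked gene with a role in neuronal adhesion, had -0.19 and 0.04. Pcdh10 had 0.21 and 0.08, and its second tested probe was at -0.03 on array 1. Among the other protocadherins, Pcdh12, of endothelium, had 0.33 and -0.00. Pcdh15, a tip-link protein of sensory hair cells, had 0.01 and 0.01 at signals from 33.1 to 97.9, with the channel labelled Smad4cKO well above background on 1 array.

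**Figure D3:**
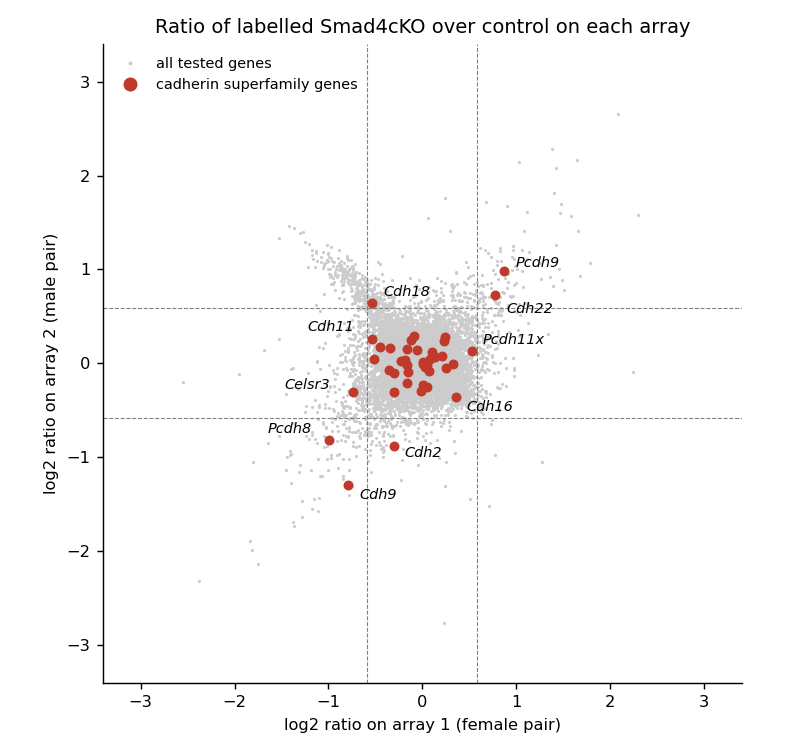
Log2 ratio on array 1 (female pair) against array 2 (male pair), for all 21238 tested genes in grey and the 41 tested members in red, with dashed lines at 1.5-fold. Pcdh9 and Cdh22 lie in the upper right corner and Pcdh8 and Cdh9 in the lower left; Cdh18 lies toward the upper left, where genes brighter in red on both arrays fall.

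The FAT, Dachsous and CELSR genes were all tested, 8 of 8, with none past the 1.5-fold rule and a median log2 ratio of -0.05. Fat4, a receptor that binds Dchs1 on the neighbouring cell, read 13419 and 14010 in the channels labelled Smad4cKO and 12901 and 13856 in those labelled control. The channels differed little on either array, with log2 ratios of 0.08 and 0.04 (95% interval of the mean -0.26 to 0.38). Its partner Dchs1 had -0.23 and 0.03.

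Fat1, which regulates actin and cell contacts, had -0.46 and 0.17, and Fat2 had -0.05 and 0.14. Fat3 had -0.30 on both arrays (mean -0.30, SE 0.13, limma adjusted p 1.00). Celsr1, a planar polarity protein of epithelia, had -0.17 and 0.15, and Celsr2 had -0.12 and 0.24. Celsr3, the member best known from axon tracts, read 185 and 228 in the channels labelled Smad4cKO against 333 and 307 in those labelled control, so the groups did not overlap. Its log2 ratios were -0.73 and -0.31, with a mean of -0.52 (SE 0.16, limma adjusted p 0.596).

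Opposite signs on the arrays mean that the normalized ratio favoured the same dye, not the same label, on each. Members are counted here by the sign of this ratio, and for Cdh3 the processed signals order the channels the other way. Of the 20 members with opposite signs, 11 were higher in red on each array and 9 in green. Among the 14 members whose processed signal was at least 2000 in every channel, 8 were higher in red on each array, 2 in green, 2 in the labelled Smad4cKO and 2 in the labelled control. Among the other 27 these numbers were 3, 7, 8 and 9. The part of dye in the opposite signs was not tested, and sex moved with it.

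Other genes of cadherin adhesion were read from lists drawn up by function. In none of the lists of catenins and plakophilins (12 tested of 14 on the array), desmosomal cadherins and plaque proteins (6 of 11), nectins and junction adaptors (16 of 16), proteins of cadherin turnover and shedding (15 of 17) and further cadherin superfamily genes outside the rule (12 of 16) did a gene pass the 1.5-fold rule. Their median log2 ratios lay between -0.01 and 0.07. Among the catenins Ctnna2, the alpha-catenin of neurons, had 0.57 and 0.25, and Ctnnd1, p120-catenin, which keeps cadherins at the membrane, had 0.39 and 0.13. Ret, a receptor tyrosine kinase with cadherin-like repeats, had -1.45 and -0.33, and Clstn2, a calsyntenin, had 0.32 and 0.39.

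The transcription factors known to repress or activate cadherin genes, 18 tested of 19, held no gene past the 1.5-fold rule and had a median of 0.14. Snai1 and Snai2, which repress Cdh1 in other tissues, had 0.34 and 0.82, and 0.35 and 0.68, with limma adjusted p of 0.523 and 0.547. The planar polarity genes other than the members, 18 of 18 tested, had a median of 0.0047 and 1 gene past the rule, Wnt5a, a secreted ligand of that pathway, dimmer with -0.61 and -0.59 (limma adjusted p 0.303). The FAT and Dachsous partners and Hippo pathway genes, 21 of 22, had none past the rule and a median of -0.07; their targets Ankrd1 and Ccn1 had -0.61 and -0.32, and -0.70 and -0.26.

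Cadherins differ between cell types, and in whole ureters fewer cells of a type and less RNA per cell cannot be told apart. The 16 urothelial markers, which mark the cells of Cdh1 and Cdh3, were all tested, with a median log2 ratio of 0.11 and none past the 1.5-fold rule. Opposite signs on the arrays were seen for 10 of them. Their summed processed signals were 178278 and 169753 in the channels labelled Smad4cKO against 136015 and 190646 in those labelled control, so the arrays differed in direction. Of 10 endothelial markers, which go with Cdh5 and Pcdh12, 9 were tested, with a median of 0.15 and none past the rule. All urothelial and smooth muscle markers, the defining cells of a ureter, were thus well above background.

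Several lists of cell type markers had medians farther from 0 than the cadherins did. Of 8 smooth muscle markers 6 were brighter by the 1.5-fold rule (Myh11, Cnn1, Actg2, Acta2, Myocd and Des), with medians of 0.96 and 1.88 on the arrays; their summed processed signals were 42814 and 62011 in the channels labelled Smad4cKO against 27292 and 27568 in those labelled control. Pcdh9 and Cdh22 shared this direction, and the part of smooth muscle RNA in their ratios was not tested. Of 10 neuronal markers 3 were dimmer (Prph, Nefm and Nefl), and the list's median was -0.69 (array 1: -0.98, array 2: -0.31). The summed signals of the neuronal list were 7357 and 8954 against 13503 and 11605, and Celsr3, Cdh2, Pcdh8 and Cdh9 shared its direction. Its part in them was not tested.

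Some other lists held dimmer markers as well. Of 12 kidney and nephric markers 2 were dimmer, Gdnf with -1.75 and -2.14 and Wt1 with -1.14 and -0.81, at a median of -0.15; summed signals were 50908 and 61407 against 59113 and 66185. Of 9 markers of ureteric and outer mesenchyme Dpt and Aldh1a2 were dimmer (medians of -0.28 and 0.29 on the arrays). Of 7 tested skeletal muscle markers Myh3 was dimmer by the rule. The median of that list was -0.37 (array 1: -0.33, array 2: -0.39), with 6 below 0 on both arrays and 1 above. Of 5 tested mesothelial markers Wt1 was dimmer. That list had a median of -0.45 (array 1: -0.91, array 2: -0.11), and 3 of its markers had opposite signs on the arrays. The glial list had a median of -0.07 with no gene past the rule, the macrophage list 0.18 and the erythroid list -0.07, likewise with none. The part of these cells in the ratios of Cdh9, Pcdh8 or Cdh2 was not tested.

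**Figure D4:**
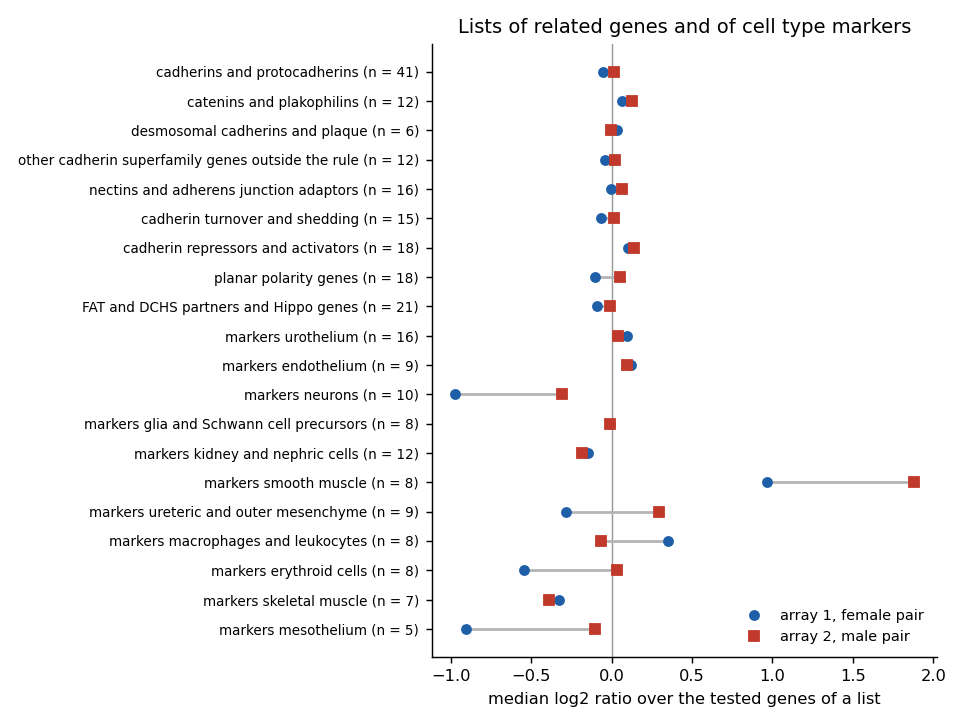
Median log2 ratio of the channel labelled Smad4cKO over that labelled control on array 1 (circles) and array 2 (squares), for the 41 tested members, related gene lists and cell type markers, with the number of tested genes in brackets. The members' medians of -0.05 and 0.01 lie close to 0, with smooth muscle markers far to the right and neuronal markers to the left.

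The ratios of Pcdh9, Cdh22, Pcdh8 and Cdh9 were recomputed under 10 other settings of background correction, normalization, filter, probe choice or limma's prior. These 4 members, and no other, passed 1.5-fold on both arrays under each. Of the 10 settings 6 moved a ratio of these members, 1 of them that of Pcdh9 alone; the other 4 (both filters on dim probes, outlier spots kept and limma's prior) left their ratios as they were and could not change this outcome for them. With the processed signals in place of the mean signals the limma adjusted p was 0.0111 for Pcdh9, 0.0119 for Cdh22, 0.0169 for Pcdh8 and 0.00798 for Cdh9. With an intensity trend and a robust prior in limma it was 5.51e-07, 8.35e-06, 1.01e-06 and 3.16e-09, and over all settings the highest was 1.00 for each of the 4. The limma call on these genes therefore depended on the setting, while the fold stayed above 1.5 on both arrays under the 6 settings that moved it. At 2-fold on both arrays none of them passed.

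**Figure D5:**
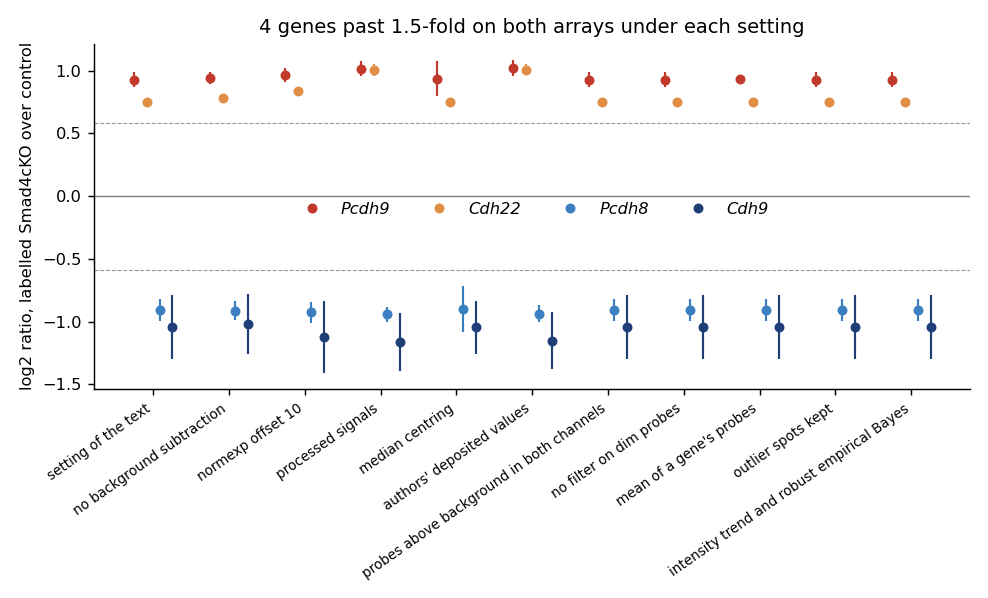
Mean log2 ratio of Pcdh9, Cdh22, Pcdh8 and Cdh9 under the setting used in the text and under 10 alternatives, with bars from the lower to the higher of the arrays and dashed lines at 1.5-fold. All points and bars lie outside the dashed lines.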

How the data were processed

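Arrays were read out with Agilent Feature Extraction 10.7.3.1 according to the submitters' processing notes. The deposited scanner files give, for each spot, the intensity in either channel, the log10 red/green ratio and a p-value, per the file headers. A value table deposited by the authors has signed folds (unit score); the sources used here do not name its software. The arrays shared 1 slide.

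Mean signals were corrected with normexp (offset 50) and loess within arrays in limma 3.58.1 (R 4.3.3, files read with data.table, version 1.17.8), with 1377 control spots of 44397 at weight 0. Outlier spots (237 and 221) were left out; no member spot was saturated or marked as an outlier. Filtering kept 26670 of 39429 probes, the brightest tested probe standing for a gene. RefSeq symbols (GRCm38.p6) were found for 26412 probes. Log2 ratios were fitted with lmFit and eBayes (1 residual and 4.89 prior degrees of freedom) with Benjamini-Hochberg adjustment over all 21238 genes. The script was tested on simulated data. With 2 arrays a sign permutation cannot go below 0.5.

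Values are given for members past a rule, for those with 1 sign on both arrays, for members named by their known place in this tissue, and for those whose probes disagreed. From the other lists those past 1.5-fold are named, or else up to 2 with the same sign. Members and lists were chosen with earlier results of these data known.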

Additional observations from a re-analysis of the deposited data

Results flagged for a closer look

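Each pair gave an opposite sign, with at least 0.25 on both arrays, for 3 members. Cdh18 had a log2 ratio of -0.54 on array 1 (female pair) and 0.64 on array 2 (male pair), a difference of 1.18 for array 2 minus array 1. Cdh11 had -0.54 and 0.26, a difference of 0.80. Cdh16 had 0.36 and -0.36, a difference of -0.71. With 1 array for each sex the differences were not tested, and the dyes were exchanged between the arrays as well. The mRNA-accession probe of Cdh18 did not repeat the opposite signs, with 0.38 and 0.13, whereas the further Cdh11 probe did, with -0.23 and 0.14.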

How the results depend on the processing

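Limma called 2 brighter and 2 dimmer members with the processed signals, 2 and 2 with the authors' deposited values (limma adjusted p 0.0327 for Pcdh9, 0.0346 for Cdh22, 0.0443 for Pcdh8 and 0.0306 for Cdh9), and 2 and 3 where limma's prior was robust and followed intensity, which added Celsr3 (limma adjusted p 0.00883, range over its settings 0.00883 to 1.00). It called none under the other 7 settings. All-gene calls were 143 brighter and 160 dimmer with processed signals, 72 and 77 with the authors' deposited values, 298 and 407 with the trend and robust prior, and 35 and 31 with a normexp offset of 10. At 2-fold in place of 1.5-fold, 0 members were brighter and 0 dimmer. Without replicate 1 or 2, a value of 1 array with no test, 2 to 3 brighter members and 3 dimmer ones were past 1.5-fold, and the median log2 ratio was -0.0533 to 0.0127. Cdh16, near 0 on average, turned to 0.0072 under median centring, which moved the all-gene medians to -0.12 on array 1 and 0.12 on array 2 and put 1440 genes past 1.5-fold in opposite directions, against 266. Cdh19, a dim probe, ranged from -0.62 to -0.21. The other members followed through the settings kept their direction wherever both arrays were used. A slide block was not run, since both arrays lay on 1 slide. No paired analysis was possible because each array already is 1 pair and the ratio within it is the value tested. Members at processed signals under 100, such as Cdh19, Cdh20, Cdh24 and Pcdh15, are read close to background.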

Other observations

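RefSeq promoter windows (GRCm38.p6, from 250 bases before to 50 after the start) were found for 29 of the 45 members. After the Cdh9 ratio was seen, the 250 bases before the start of Cdh9 and of its neighbour Cdh6 were compared, and the longest run they share has 15 bases, ATTCACTTGCAAATC. On either strand it occurs in 2 of 32851 promoter windows (0.00609%), those of Cdh9 and Cdh6. It lies 209 bases before the start in Cdh9 (chr15:16728665-16728914, plus strand) and 18 bases before it in Cdh6 (chr15:13173676-13173925, minus strand). The windows are shown 5′ to 3′ with the shared run in capitals. A shared run is a description of these letters, not a site. Its presence in these 2 windows was fixed by picking it from them, so its share of all windows tests nothing.
Cdh9: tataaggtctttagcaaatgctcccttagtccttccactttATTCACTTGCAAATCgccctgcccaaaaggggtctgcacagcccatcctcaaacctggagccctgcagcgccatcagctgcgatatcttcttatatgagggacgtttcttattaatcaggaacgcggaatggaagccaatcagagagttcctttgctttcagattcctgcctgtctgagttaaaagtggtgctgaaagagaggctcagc
Cdh6: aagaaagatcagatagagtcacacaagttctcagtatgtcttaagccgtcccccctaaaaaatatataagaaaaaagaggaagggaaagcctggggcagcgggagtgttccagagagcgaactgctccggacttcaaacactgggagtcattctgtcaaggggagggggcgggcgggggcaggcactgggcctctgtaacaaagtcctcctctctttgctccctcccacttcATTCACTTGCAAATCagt

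Short motifs were searched on both strands in the same windows. CAGGTG, the E-box that Snai1 and Snai2 can bind, was in 6 of the 29 members (Cdh7, Cdhr1, Celsr2, Fat1, Pcdh15 and Pcdh7) and in 20.2% of all windows. Of these, Cdh7 and Cdhr1 were not well above background on the arrays. GGCGCC, a GC-rich sequence that SMADs can bind, was in 3 (Fat4, Pcdh17 and Pcdh8) and in 11.9% of all windows. GTCTAGAC, the palindromic SMAD element, was in 0 of the 29 and in 0.213% of all windows. Members without a window were not searched, and the 29 with a window are not all named here. The absence of a member such as Cdh1 from these lists therefore does not show that its promoter lacks the letters. Nothing about binding in the ureter follows from these letters.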
